A study of Mus musculus with 6 samples.

Results

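The genes described here encode the variable B subunits of protein phosphatase 2A (PP2A) in HL-1 cells, a line derived from mouse atrial cardiomyocytes. The set consists of 10 named genes, and 9 of them were measured among the 21269 genes of the table: Ppp2r2a, Ppp2r2c, and Ppp2r2d of the B55 family, Ppp2r3a of the PR72/PR130 family, and Ppp2r5a to Ppp2r5e of the B56 family. Ppp2r2b was not analysed here. The set was chosen by gene name, except that Ppp2r2c was selected on its strong rise from near silence in the contrast reported here, so its difference between the groups is described with no test. The other 8 genes entered as its relatives and were tested.

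Both groups were transfected with a gapmer at 50 nM, either LNA Control or LNA Malat1, and harvested after 48 hours, which gave 3 libraries each. Gapmers are short DNA oligonucleotides with locked nucleic acid (LNA) ends, and RNase H cuts the RNA they bind. LNA Malat1 is directed against the nuclear long noncoding RNA Malat1. All cells, controls included, grew in Claycomb medium with serum and norepinephrine. The comparison asks which genes change in cardiomyocyte-like cells when Malat1 is depleted, and the labels name 1 gapmer per group, so effects of the gapmer sequence and of Malat1 loss cannot be told apart.

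PP2A removes phosphate from serine and threonine residues of many proteins. Its core is a catalytic C subunit bound to a scaffold A subunit, and a B subunit joins the core and determines which substrates are reached and where in the cell. B55 subunits direct the enzyme to substrates of the cyclin-dependent kinases at the exit from mitosis, whereas B56 subunits recognize a short motif in partners at the centromere, the kinetochore, and the membrane. In the heart, PP2A counteracts beta-adrenergic phosphorylation of calcium-handling and sarcomere proteins, and part of it is anchored there by B56 subunits. The different B subunits compete for the same core.

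The 6 libraries held between 4512253 and 5593499 recovered reads on genes, and their normalized counts summed to between 4758777 and 4921406. Malat1 itself, at 4369 to 5197 normalized counts in LNA Control, was at 2732 to 2833 in LNA Malat1, or 57.2% of control. LNA Malat1 replicates 1 and 3 differed by less than the sampling noise over 14522 genes (mean chi-square 0.949 per gene, against about 1 from noise alone). For 1754 genes of 1600 reads or more it was 1.09, somewhat above noise (chi-square test, p = 0.0031). Replicates 1 and 2 were also near noise over all genes (1.01) but not for those of 1600 reads or more (1.66), and they were kept apart. The pair was counted as 1 sample in each mean ± SD, so that n = 3 for LNA Control and n = 2 for LNA Malat1, while the fitted tests used all 6 libraries. LNA Control replicate 1 stood apart from replicate 3 (4.18 per gene). Differences were tested by limma on the log2 scale after adding 1, and a gene is said to pass, and to have risen or fallen, at a Benjamini-Hochberg adjusted p of no more than 0.05. Nothing in the sample records says that the replicates came from separate cultures, so p-values measure the spread between these libraries, which may be technical. Of the cardiomyocyte markers, Ryr2 (2237 to 2706), Tnnt2 (647 to 746), and Actc1 (409 to 475) were present. Gata4 (770 to 923) and Nkx2-5 (187 to 211) were present too, whereas the myosin gene Myh6 (0 to 7) was nearly absent. The atrial myosin gene Myl7 had 18 to 32 normalized counts on only 590 exonic bases. Per kilobase of exon, Myl7 was at 30.5 to 54.2 and Tnnt2 at 83.5 to 96.2. Nppa was not analysed here. These ranges span both groups. Tnnt2 rose (log2 fold change 0.15, adjusted p = 0.034) and Gata4 fell (−0.21, adjusted p = 0.0079). Ryr2, Actc1, Nkx2-5, and Myl7 did not pass, and Myh6 lay below the minimum mean for testing.

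Ppp2r2c (ENSMUSG00000029120) was near silence in LNA Control, and Ppp2r5b had the lowest level among the 3 genes that fell. The sequences before their starts are shown to set the promoter of the member with the largest difference beside that of a B56 gene that fell. They come from RefSeq (GRCm38.p6), in which 7 of the 9 genes were matched, with Ppp2r2a and Ppp2r5e missing. The Ppp2r2c sequence is chr5:36868260-36868509 on the plus strand, 250 bases before the start in RefSeq, and that of Ppp2r5b is chr19:6235873-6236090 on the minus strand, 218 bases before the first exon. Both are written 5′ to 3′, and capitals mark the GC box GGGCGG, searched on both strands (as CCGCCC on the other).
Ppp2r2c: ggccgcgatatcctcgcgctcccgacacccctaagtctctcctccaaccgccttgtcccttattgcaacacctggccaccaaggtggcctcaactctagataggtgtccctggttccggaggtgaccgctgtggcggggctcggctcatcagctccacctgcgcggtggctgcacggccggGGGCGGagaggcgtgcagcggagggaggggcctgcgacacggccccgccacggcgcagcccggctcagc
Ppp2r5b: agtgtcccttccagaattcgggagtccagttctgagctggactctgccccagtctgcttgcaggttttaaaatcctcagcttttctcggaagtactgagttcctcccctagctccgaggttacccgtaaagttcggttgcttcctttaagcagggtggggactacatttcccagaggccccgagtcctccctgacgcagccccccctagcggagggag
The Ppp2r2c sequence held 23 CpG dinucleotides at a GC content of 69.6% and an observed-to-expected CpG ratio of 0.76, and 86.7% of the 32851 windows of this length before mouse gene starts held fewer CpG. The single GC box it carries is a letter match found in 32.7% of those windows. That of Ppp2r5b held 8 CpG at a GC content of 56.4%, more than 61.7% of windows of its length, and no GC box, whose share was 28.2%. Neither sequence contained the CCAAT box (CCAAT, or ATTGG on the other strand), present in 33.8% and 30.8% of windows of the respective lengths, nor the TATA box (TATAAA, or TTTATA on the other strand), present in 12.4% and 9.87%.

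Ppp2r2c encodes B55γ, a subunit best known from the brain, and lies at chr5:36868513-36955078 (mm10, plus strand). Its normalized counts, given for replicates 1, 2, and 3 in this order here and throughout, were 2, 1, and 6 in LNA Control against 38, 49, and 40 in LNA Malat1. The mean went from 3.0 ± 2.6 (SD, n = 3) to 44.0 ± 7.1 (n = 2), and every LNA Malat1 library lay above every LNA Control library. The recovered reads were 10 in the 3 LNA Control libraries together and 134 in the 3 LNA Malat1 libraries. On the log2(normalized count + 1) scale the difference was 3.63, rank 5 among the 15650 genes tested. The genes with at most 6 normalized counts in each LNA Control library and at least 38 in each LNA Malat1 library numbered 5, all protein-coding: Ces2f, Nfam1, Scd1, Zkscan7, and Ppp2r2c, which set these bounds. These names were read off after their values were seen.

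**Figure D1:**
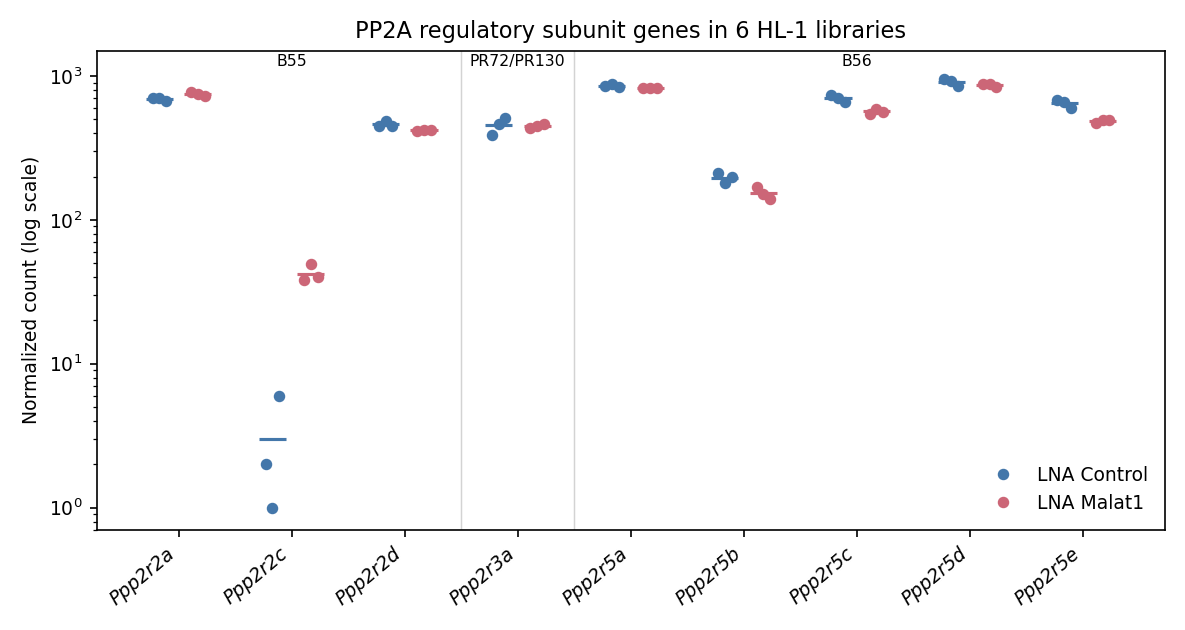
Normalized count (log axis) of each of the 9 PP2A regulatory subunit genes in the 6 libraries, where points are libraries (blue, LNA Control; red, LNA Malat1) and horizontal lines are the mean of the 3 libraries. Ppp2r2c lies at 1 to 6 in LNA Control and at 38 to 49 in LNA Malat1, below the other 8 genes, which lie between 140 and 956.

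Even in LNA Malat1, Ppp2r2c remained the least abundant of the measured B subunit genes. Per kilobase of exon, its level in the 3 LNA Malat1 libraries was 8.54, 11.0, and 8.99, while that of the next gene, Ppp2r3a, was 35.2 to 37.3. Low genes as a class were higher in LNA Malat1: among the 1835 genes with a mean of 20 to 50 normalized counts, the range of Ppp2r2c, the median log2 fold change was 0.23 and 19.6% were higher by at least 1.5-fold with an adjusted p within 0.05, against 3.87% lower. With quantile normalization that median was −0.02. The difference of Ppp2r2c ranged from 2.61 with a pseudocount of 5 to 4.14 over 15 other settings.

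Neuronal markers were examined beside it. The summed normalized counts of the 5 neuronal markers measured (Rbfox3, Snap25, Syt1, Tubb3, and Syp) were 10 to 21 in LNA Control against 45 to 58 in LNA Malat1. In LNA Malat1 the largest part of this sum was Tubb3, a tubulin, which rose from 8 to 10 normalized counts to 25 to 28 (log2 fold change 1.52, SE 0.25, adjusted p = 7e-04). In LNA Control, Syp had 11, 2, and 10 normalized counts against 10, 8, and 8 for Tubb3. Syp did not pass (adjusted p = 0.27), and the other 3 lay below the minimum mean for testing. Rbfox3 had 0, 0, and 1 against 9, 4, and 4. The synaptic genes Snap25 and Syt1 did not exceed 4 in any library, and Snap25 was at 0 in all LNA Control libraries. The 2 macrophage markers measured, Cd68 and Csf1r, summed to 32 to 36 and 54 to 81, and both rose (log2 fold change 0.79, adjusted p = 0.023, and 1.19, adjusted p = 0.013). Their list held 4 genes, of which Ptprc and Adgre1 were not analysed here. Of all genes tested, 14.3% rose. Among genes with a mean of 20 to 50, where Cd68 and Csf1r lie, 19.6% were higher past 1.5-fold. The 2 endothelial markers measured summed to 19 to 28 and 32 to 35. Smooth muscle markers (1512 to 1678 and 1553 to 1701) overlapped between the groups, although Cnn1 among them rose (0.40, adjusted p = 0.0035), and fibroblast markers were at 2928 to 3361 and 2685 to 2756. Fewer cells of a type and less RNA per cell cannot be told apart in these bulk libraries, and the part of these markers in the difference of Ppp2r2c was not tested.

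The genes whose levels were most like those of Ppp2r2c over the 6 libraries, by the root mean square difference of log2(normalized count + 1), were Psd2 (0.53), Asic1 (0.63), and Scd1 (0.64). Psd2 had 2, 2, and 3 normalized counts in LNA Control against 32, 28, and 38 in LNA Malat1. Asic1, which encodes an acid-sensing ion channel, had 4, 3, and 4 against 30, 34, and 29. Scd1, which encodes a stearoyl-CoA desaturase, had 1, 2, and 2 against 53, 54, and 45. All 3 were near 0 in LNA Control, which follows from their choice by likeness to Ppp2r2c over these libraries.

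Ppp2r2a encodes B55α, the broadly expressed member that counteracts cyclin-dependent kinases, and lies at chr14:67014056-67072444. It had 702, 699, and 673 normalized counts in LNA Control against 777, 750, and 723 in LNA Malat1. The groups did not overlap, with LNA Malat1 higher (log2 fold change 0.12, 95% interval 0.0056 to 0.23), but the difference did not pass the test (adjusted p = 0.11). It passed under 3 alternatives, with library totals set equal (0.15, adjusted p = 0.033), quantile normalization (0.18, adjusted p = 0.016), and voom on recovered reads (0.16, adjusted p = 0.030), but not with median-of-ratios scaling (adjusted p = 0.20). Ppp2r2d encodes B55δ, the form held in check by Ensa and Arpp19 at mitotic entry, and lies at chr7:138846079-138883057. Its values of 451, 485, and 449 in LNA Control all lay above the 413, 422, and 425 in LNA Malat1, and the log2 fold change of −0.14 (−0.25 to −0.017) did not pass (adjusted p = 0.083). These B55 genes had log2 fold changes of opposite sign, which neither setting nor left-out library turned, and the ratio of their levels per length, Ppp2r2a over Ppp2r2d, was 1.71, 1.58, and 1.64 in LNA Control against 2.06, 1.95, and 1.87 in LNA Malat1. These ratios did not overlap, and the exact permutation test gave p = 0.1, the smallest that 3 against 3 libraries allow. The opposite signs were already seen in the single genes, so the ratio adds no separate evidence.

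Ppp2r3a encodes the calcium-binding subunits PR72 and PR130 from the same locus, at chr9:101105084-101251795, and the counts do not separate the 2 forms. It varied more among LNA Control libraries (388, 468, and 510) than between the groups, since all 3 LNA Malat1 values (439, 452, and 465) fell within that range. The log2 fold change was −0.0018 (−0.18 to 0.18, adjusted p = 0.99).

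All 5 B56 genes had a negative log2 fold change, and 3 of them fell, Ppp2r5b, Ppp2r5c, and Ppp2r5e. Over all genes tested, 14.0% fell and 14.3% rose, 28.3% in either direction. The largest fall was that of Ppp2r5e, which encodes B56ε and lies at chr12:75450881-75596245. It had 686, 657, and 604 normalized counts in LNA Control against 472, 495, and 496 in LNA Malat1, with a wide gap between the groups. The mean went from 649 ± 41.6 (n = 3) to 490 ± 7.8 (n = 2), 75.4% of control, with a log2 fold change of −0.41 (SE 0.06, adjusted p = 0.00026). Ppp2r5c encodes B56γ, which brings PP2A to p53, and lies at chr12:110447120-110583062. Its 734, 707, and 665 counts in LNA Control compared with 549, 586, and 567 in LNA Malat1, again without overlap. The mean went from 702 ± 34.8 to 572 ± 19.8, 81.5% of control (log2 fold change −0.31, SE 0.06, adjusted p = 0.0014). Both genes kept their call in each of the 16 other settings, with an adjusted p of at most 0.0043 and 0.015 when any library was left out.

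Ppp2r5b encodes B56β and lies at chr19:6227765-6235872, on the chromosome that also holds Malat1 (chr19:5795690-5802672). It had 211, 182, and 198 normalized counts in LNA Control against 169, 152, and 140 in LNA Malat1. The highest LNA Malat1 value lay below the lowest LNA Control value. The mean went from 197 ± 14.5 to 153 ± 1.8, 77.8% of control (log2 fold change −0.36, SE 0.09, adjusted p = 0.0099). The SD of 1.8 understates the spread in LNA Malat1, since the averaged pair holds the highest and lowest libraries (169 and 140). Per kilobase of exon, the SD over separate libraries was 4.3 in LNA Control and 4.3 in LNA Malat1. Without LNA Malat1 replicate 3, its lowest library, the log2 fold change was −0.29 and did not pass (adjusted p = 0.054).

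The remaining B56 genes did not pass. Ppp2r5a encodes B56α, the form best known at cardiac calcium channels and myofilaments, and lies at chr1:191351975-191403272. Its counts of 857, 883, and 837 in LNA Control lay just above the 827, 820, and 822 in LNA Malat1, and the log2 fold change of −0.06 (−0.17 to 0.044) did not pass (adjusted p = 0.38). Ppp2r5d encodes B56δ, a form that protein kinase A can phosphorylate, and lies at chr17:46682991-46705111. It had 956, 923, and 859 counts in LNA Control against 875, 875, and 843 in LNA Malat1, which overlapped (log2 fold change −0.08, −0.20 to 0.041, adjusted p = 0.32).

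**Figure D2:**
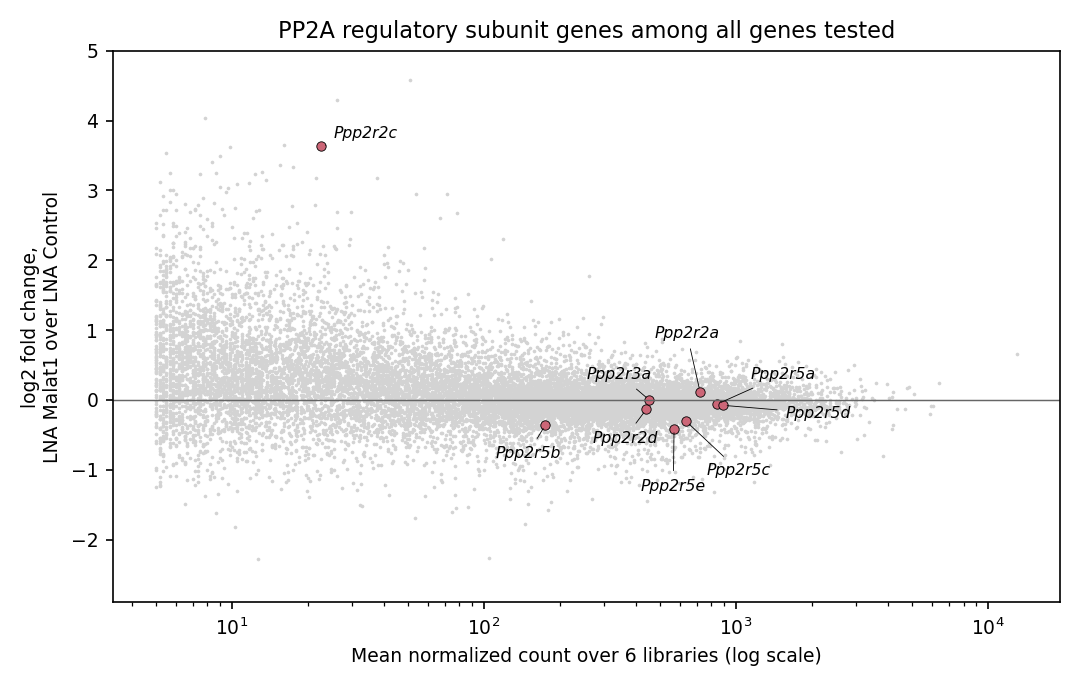
Log2 fold change of LNA Malat1 over LNA Control against the mean normalized count over the 6 libraries (log axis) for the 15650 genes tested (grey) and the 9 PP2A regulatory subunit genes (red). Ppp2r2c lies at 3.63, while the other 8 genes lie between −0.41 and 0.12 at means above 100.

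Counted together, 3 of the 8 genes other than Ppp2r2c fell (adjusted p within 0.05) and 0 rose, against the shares over all genes given above. Among the 7881 genes with a mean of 100 to 1000 normalized counts, where these 8 genes lie, 21.6% were lower and 11.2% higher. At the additional minimum of a 1.5-fold change, 0 of the 8 were called by limma, 0 by voom, and 0 at an unadjusted p under 0.05, whereas 10.9% of all genes were called, 2.92% lower and 8.00% higher. At an unadjusted p under 0.05 with no fold minimum there were 5, of which 4 were lower, against 39.8% of all genes in either direction. The groups did not overlap in 6 of the 8 genes, with LNA Malat1 lower in 5 and higher in 1 (Ppp2r2a), against 41.3% of all genes, 20.8% lower and 20.5% higher. The median log2 fold change was −0.11 for the 8 genes, 0.018 for all genes, and −0.043 for the 7881 genes with a mean of 100 to 1000. With 152 to 995 recovered reads per library behind each of the 8 genes, the 95% intervals of the genes that did not pass reached at most 0.25 in size.

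Levels were then compared between the genes, as normalized counts per kilobase of exonic length. In LNA Control, Ppp2r5d was highest at 268 ± 14.5 (n = 3 for each gene), followed by Ppp2r2a at 128 ± 3.0, Ppp2r5e at 121 ± 7.8, Ppp2r5a at 89.4 ± 2.4, Ppp2r5c at 84.7 ± 4.2, and Ppp2r2d at 78.2 ± 3.4. Below them came Ppp2r5b at 58.4 ± 4.3, Ppp2r3a at 36.6 ± 5.0, and Ppp2r2c at 0.67 ± 0.59. The library ranges of Ppp2r2a and Ppp2r5e overlapped, as did those of Ppp2r5a and Ppp2r5c and of Ppp2r5c and Ppp2r2d, so these neighbours were not separated. In LNA Malat1 the order was the same except that Ppp2r2d (71.2) and Ppp2r5c (68.5) exchanged places with overlapping ranges. Ppp2r2a (134 to 144) and Ppp2r5e (88.3 to 92.8) no longer overlapped there. The order depends on the length used. With the longest transcript in place of all exons, 5 of the 9 genes kept their rank in LNA Control, and Ppp2r5a moved up to the second place.

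The share of each gene in the summed level of the 9 genes gives the composition of the B subunit mRNA pool, which does not depend on the factor of each library. B56 genes made up 73.2%, 71.5%, and 70.8% of the pool in LNA Control against 68.0%, 68.1%, and 68.0% in LNA Malat1. Their share was thus lower in every LNA Malat1 library, with a mean difference of −3.79 percentage points. B55 genes made up 23.3%, 24.3%, and 24.2% in LNA Control against 27.7%, 27.4%, and 27.3% in LNA Malat1, a difference of 3.5 points. Ppp2r2c alone made up 0.026% to 0.16% of the pool in LNA Control against 1.06% to 1.36% in LNA Malat1. Since Ppp2r2c was chosen on this contrast and enters these sums, test results for the shares are given only with it left out. The B56 share then differed by −3.0 points and the B55 share by 2.66 points, again without overlap (exact permutation p = 0.1 each, two-sided, the smallest that 3 against 3 libraries allow). As parts of the same sum these shares mirror each other. They follow from the levels of the single genes and add no separate evidence.

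**Figure D3:**
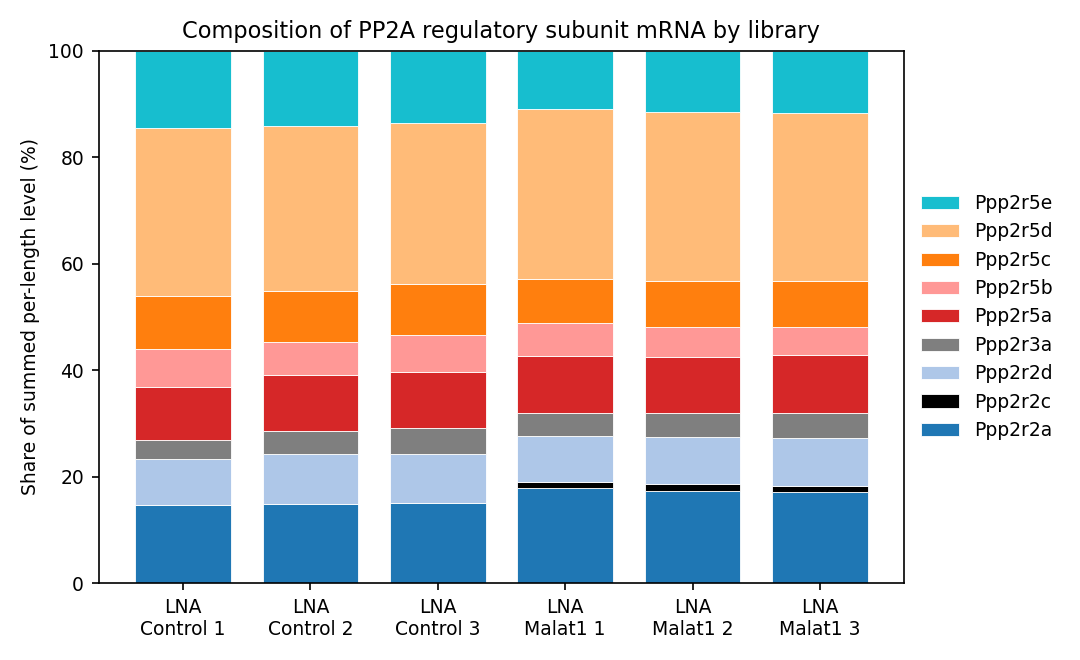
Share (%) of each gene in the summed normalized count per kilobase of the 9 PP2A regulatory subunit genes, 1 bar per library. From LNA Control to LNA Malat1 the share of Ppp2r5e goes from 13.5% to 14.5% down to 11.0% to 11.8%, and that of Ppp2r2a goes from 14.7% to 15.0% up to 17.0% to 17.9%.

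Single genes moved unequally within the pool. Ppp2r2a made up 14.7%, 14.8%, and 15.0% in LNA Control against 17.9%, 17.2%, and 17.0% in LNA Malat1, while Ppp2r5e went the other way, from 13.5% to 14.5% down to 11.0% to 11.8%. Ppp2r5c accounted for 9.61% to 9.97% and then 8.22% to 8.74%. Ppp2r5d held 30.2% to 31.6% and 31.4% to 31.9%, with overlap. Within the B56 family, the level of Ppp2r5e over that of Ppp2r5a was 1.44, 1.34, and 1.3 in LNA Control against 1.03, 1.09, and 1.08 in LNA Malat1. For Ppp2r5c over Ppp2r5a the ratios were 0.993, 0.928, and 0.921 against 0.770, 0.829, and 0.80. Both ratios were lower in all LNA Malat1 libraries (exact permutation p = 0.1 each). Each sets a gene that fell over one that did not pass, so this direction follows from the single genes and adds no separate evidence. In absolute terms the summed B56 level was 592 to 650 normalized counts per kilobase in LNA Control and 536 to 551 in LNA Malat1, whereas the summed B55 level without Ppp2r2c was 201 to 212 and 206 to 214 (exact permutation p = 0.5).

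The core subunits and the factors that build or inhibit the holoenzyme were examined next, as lists drawn up by function. Of the 24 genes tested besides the B subunits above, 6 fell and 2 rose, each by less than 1.5-fold, beside 14.0% and 14.3% of all genes and 21.6% and 11.2% of those with a mean of 100 to 1000. The median log2 fold change was −0.088 for the 24, 0.018 for all genes, and −0.043 for those with a mean of 100 to 1000. Of the 4 core genes, 2 fell. Ppp2ca, the α form of the catalytic subunit, fell from 1237, 1279, and 1177 normalized counts to 1039, 1037, and 986 (log2 fold change −0.27, SE 0.05, adjusted p = 0.0024). Ppp2cb, the β form, had 596, 607, and 548 against 585, 597, and 588, which overlapped (0.02, adjusted p = 0.85). Ppp2ca therefore made up 28.9% to 29.6% of the catalytic level per length in LNA Control and 24.7% to 25.8% in LNA Malat1, although 2985 of its exonic bases overlap a gene on the opposite strand. The scaffold gene Ppp2r1a had 770, 662, and 648 counts against 617, 611, and 588 (−0.19, SE 0.07, adjusted p = 0.047), a call that was lost in 11 of 16 settings, among them those without any 1 library other than LNA Control replicate 3 (adjusted p up to 0.17). Ppp2r1b, the other scaffold gene, did not pass (−0.10, adjusted p = 0.20). The summed catalytic level was 530 to 584 per kilobase in LNA Control and 532 to 545 in LNA Malat1 (exact permutation p = 0.4).

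Among the other B-type subunits, the striatins moved in different directions. Strn, the founding striatin and a scaffold that ties PP2A to kinases, fell from 1497, 1507, and 1421 normalized counts to 1047, 1076, and 1060 (log2 fold change −0.47, SE 0.05, adjusted p = 2.4e-05). Strn4 fell as well, from 570, 541, and 500 to 450, 423, and 444 (−0.29, SE 0.06, adjusted p = 0.0036). Strn3 rose, with 689, 810, and 807 against 891, 922, and 880 (0.23, SE 0.07, adjusted p = 0.020), but its call was lost in 5 of 16 settings, among them each that left out an LNA Malat1 library (adjusted p up to 0.089). Per kilobase of exonic length, Strn over Strn3 was 1.63, 1.4, and 1.32 in LNA Control against 0.882, 0.876, and 0.904 in LNA Malat1 (exact permutation p = 0.1). The genes had moved in opposite directions on their own, so this ratio adds no separate evidence. Which of them is higher depends on the length used. The exonic lengths are 8858 bases for Strn and 6646 for Strn3, and the longest transcripts 8629 and 3701. Ppp2r3c and Ppp2r3d did not pass (−0.07 and −0.14).

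Of the 5 assembly genes, Ptpa, the activator that helps to load metal into the catalytic subunit, fell from 646, 621, and 556 to 442, 434, and 475 (log2 fold change −0.43, SE 0.07, adjusted p = 4e-04). The groups were far apart, and its call held in all 16 settings. Lcmt1 and Ppme1, which add and remove the methyl group that favors B55 binding, did not pass (−0.12 and −0.06), nor did Igbp1 and Tiprl. Of the 10 inhibitors, Anp32a fell from 493, 515, and 505 to 454, 448, and 408 (−0.21, SE 0.06, adjusted p = 0.017), a call lost in 3 settings, among them those without LNA Control replicate 2 or LNA Malat1 replicate 3 (adjusted p up to 0.088). Fam122b, a B55 inhibitor, rose from 266, 251, and 289 to 330, 312, and 337 (0.28, SE 0.07, adjusted p = 0.0081). The other 8, Set, Cip2a, Ensa, Arpp19, Mastl, Bod1, Bod1l, and Fam122a, did not pass. Bod1 did with median-of-ratios scaling (−0.25, adjusted p = 0.045), without LNA Control replicate 1 (−0.25, adjusted p = 0.047), and without LNA Malat1 replicate 2 (−0.30, adjusted p = 0.033), as well as with the replicate number as a block (−0.23, adjusted p = 0.042). Without LNA Control replicate 3, Mastl (0.25, adjusted p = 0.0068) and Bod1l (0.58, adjusted p = 0.011) did, and Bod1l had only 815 counts in LNA Control replicate 1 against 1376 and 1651 in the others.

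**Figure D4:**
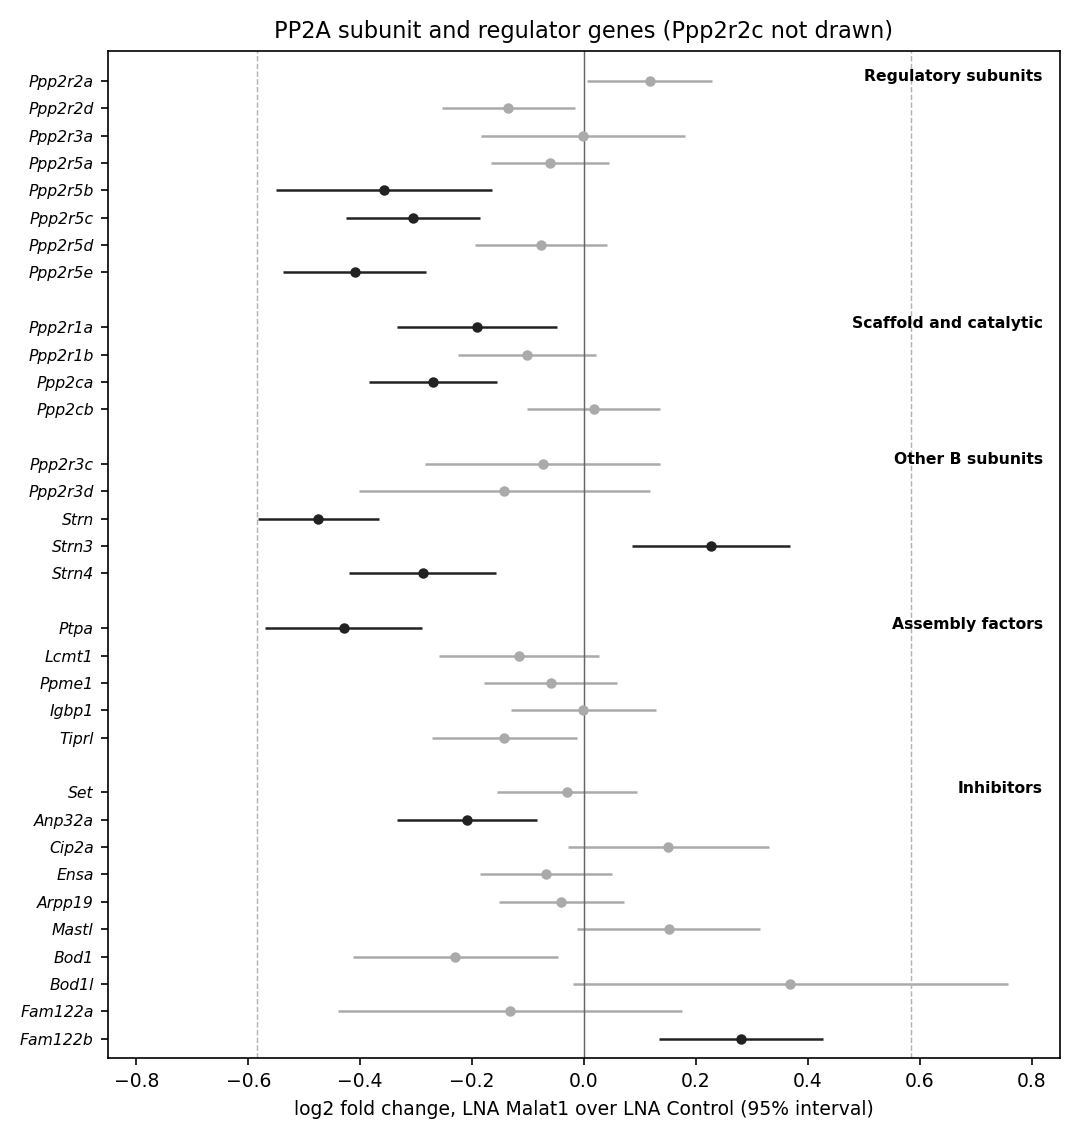
Log2 fold change of LNA Malat1 over LNA Control with its 95% interval for the 8 tested B subunit genes and the 24 core, other B subunit, assembly, and inhibitor genes (black, adjusted p of at most 0.05; grey, not passed; dashed lines, 1.5-fold in either direction; Ppp2r2c is not drawn). Strn at −0.47, Ptpa at −0.43, and Ppp2r5e at −0.41 lie farthest to the left, and no point reaches a dashed line.

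Genes that work with PP2A or form related phosphatases were counted in the same way. Of 52 tested, 14 were lower and 4 higher, with a median log2 fold change of −0.11, beside 14.0% and 14.3% of all genes. Among genes with a mean of 100 to 1000, 21.6% were lower and 11.2% higher, with a median of −0.043. Without LNA Control replicate 2 the lower ones numbered 9, and with library totals set equal or with voom the higher ones numbered 9. In the striatin complex (11 tested) 4 fell, Strip2, Sike1, Cttnbp2nl, and Stk24. Strip2 went from 173, 184, and 195 normalized counts to 75, 75, and 92 (−1.18, SE 0.10, adjusted p = 5.6e-06), the only member of this list past 1.5-fold. Of 7 B56 partners, Bub1b and Foxo3 fell. Of 9 genes for cardiac anchors and substrates of PP2A, Cacna1c, Pln, and Camk2d fell and Ank2, Akap6, and Mybpc3 rose. Akap6, the anchor that holds PP2A near the nuclear envelope and the ryanodine receptor, had 180, 150, and 207 against 266, 297, and 297 (0.69, SE 0.10, adjusted p = 3.4e-04). Ank2, which encodes ankyrin-B, a partner of B56α, had 17, 16, and 20 against 36, 30, and 24 (0.72, SE 0.23, adjusted p = 0.031), a call lost in 5 of 15 settings, among them those without LNA Control replicate 2, LNA Malat1 replicate 1, or LNA Malat1 replicate 2 (adjusted p up to 0.14). Cacna1c, the cardiac L-type calcium channel, fell by 0.89 on the log2 scale (adjusted p = 1.9e-05), and Mybpc3, a thick filament protein, rose by 0.67 (adjusted p = 0.0070). Among 12 genes of PP4 and PP6, Ppp4r1, Ppp6r3, and Ankrd44 fell and Ppp6r2 rose, and among 13 genes of PP1, Ppp1ca and Ppp1r12b fell. Of 16 settings, the call of Ankrd44 was lost in 10, Ppp1ca in 6, Ppp6r2 and Stk24 in 5 each, and Ppp6r3 and Bub1b in 4 each. All 6 were lost without LNA Control replicate 2. Ankrd44, Ppp1ca, and Ppp6r2 were also lost without any single LNA Malat1 library, Stk24 without replicate 2 or 3 of LNA Malat1, Ppp6r3 without 1 or 2, Bub1b without 1 or 3, and Ankrd44 without LNA Control replicate 3. With any 1 library left out the adjusted p reached 0.12 for Ankrd44, 0.098 for Ppp1ca, 0.10 for Ppp6r2, 0.093 for Stk24, 0.096 for Ppp6r3, and 0.060 for Bub1b. The members of these lists named without values were read off after their values were seen.

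Around Ppp2r2c on chromosome 5, 17 genes lay within 500 kb, of which 14 were tested. Of these, 3 fell, all past 1.5-fold, and 2 rose. Over all genes 28.3% passed in either direction, and 2.92% were lower past 1.5-fold. The nearest gene, Wfs1, which encodes the endoplasmic reticulum protein wolframin, lies 11.0 kb beyond the end of Ppp2r2c on the other strand. It rose from 320, 307, and 299 normalized counts to 395, 369, and 379 (log2 fold change 0.30, SE 0.06, adjusted p = 0.0020). On the other side, Man2b2, 37.9 kb before Ppp2r2c, did not pass (0.06, adjusted p = 0.54). The genes that fell lay farther away. Evc, 334 kb off, had 302, 302, and 297 against 146, 138, and 157 (−1.03, SE 0.07, adjusted p = 8.3e-07), and its partner at the base of the cilium, Evc2, 383 kb off, had 635, 667, and 636 against 410, 419, and 417 (−0.64, SE 0.05, adjusted p = 2.9e-06). Sorcs2, 470 kb before Ppp2r2c, had 319, 294, and 313 against 181, 195, and 198 (−0.69, SE 0.07, adjusted p = 1.3e-05). Ccdc96 had 24, 30, and 35 against 50, 52, and 36 (0.61, SE 0.20, adjusted p = 0.039) and lost its call in 7 of 15 settings, among them those without LNA Control replicate 1 or 2 or LNA Malat1 replicate 1 or 2 (adjusted p up to 0.15). The 9 other neighbours tested did not pass.

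**Figure D5:**
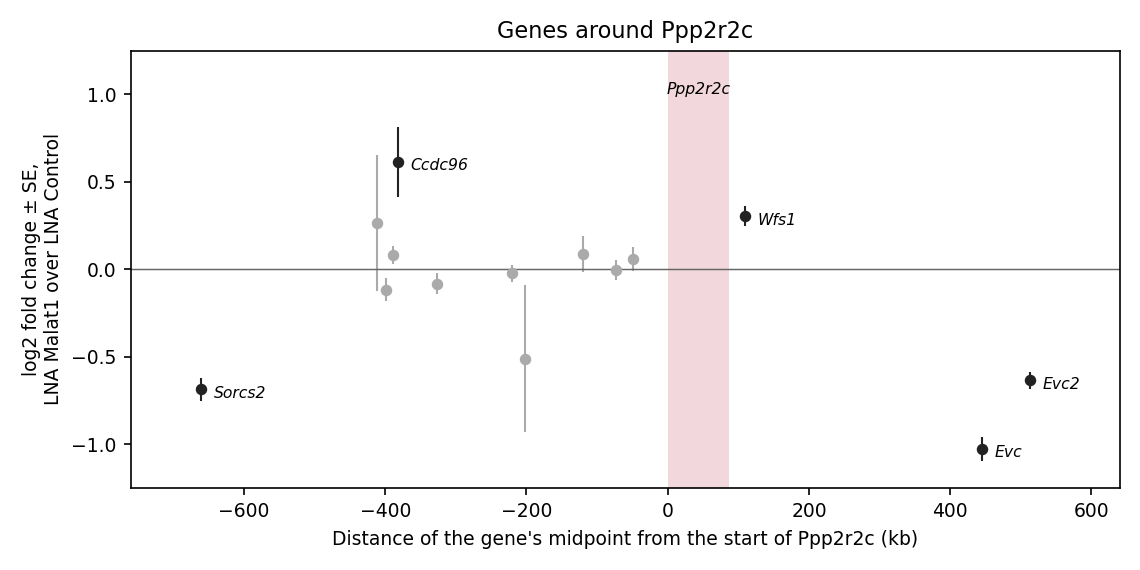
Log2 fold change of LNA Malat1 over LNA Control with its standard error for the 14 tested genes within 500 kb of Ppp2r2c, against the distance (kb) of each gene's midpoint from the start of Ppp2r2c (black, adjusted p of at most 0.05; grey, not passed; shaded, the span of Ppp2r2c). Wfs1 at 0.30 is the nearest called gene, and Evc at −1.03, Sorcs2 at −0.69, and Evc2 at −0.64 are the farthest out.

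Overlaps with other genes limit some of these values, since the use of strand in counting was not given in the sources used here. By GENCODE M21, Ppp2r2a, Ppp2r2c, Ppp2r5a, Ppp2r5c, and Ppp2r5e share no exonic base with another gene. Ppp2r2d shares 195 bases with Mapk1ip1, Ppp2r3a 127 with Gm37621, Ppp2r5d 121 with Mea1, and Ppp2r5b 4 with Gpha2, each on the opposite strand. Of the other PP2A genes besides Ppp2ca, Ppp2r1b shares 1429 of its 6449 exonic bases with Sik2, also on the opposite strand. Ppp2r3c shares 243 with 1110008L16Rik, Lcmt1 132 with Arhgap17, and Ppme1 75 with C2cd3, likewise on the opposite strand. In the pathway column of the table, all 9 measured genes were listed under adrenergic signaling in cardiomyocytes. They were equally listed under AMPK, PI3K-Akt, and sphingolipid signaling, dopaminergic synapse, and mRNA surveillance. The 5 B56 genes alone were under oocyte meiosis, and the 3 B55 genes alone under Hippo signaling, tight junctions, Chagas disease, and hepatitis C.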

How the data were processed

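RNA from 6 HL-1 libraries (3 LNA Control, 3 LNA Malat1; groups taken from the sample titles) was prepared with a stranded total RNA kit. By the study's methods and the submitters' processing notes, the authors used Trimmomatic 0.39 for trimming, STAR 2.7.7a for alignment to mm10 (Ensembl release 101), featureCounts 1.6.5 for reads on exons, without those shared by several genes or regions, and DESeq2 1.30.0. The deposited values are scores: the authors scaled each count by 1 factor per library and rounded it. The table's other columns annotate the genes.

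Genes with a mean of at least 5 normalized counts (15650 of 21269) entered limma (version 3.58.1, R 4.3.3; lmFit and eBayes with trend) on log2(normalized count + 1), two-sided, with Benjamini-Hochberg adjustment over all genes. A gene passed, fell, or rose at an adjusted p of at most 0.05. The additional 1.5-fold minimum is that of the study's methods. Fold changes on this scale understate those of low genes. Reads per library were recovered from the steps that rounding leaves. Exonic lengths came from GENCODE M21 (21224 genes matched). Shares and ratios were tested by exact permutation with scipy 1.17.1. The fit was tested on simulated data.

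The members and lists were chosen with earlier results of these data known. Genes named are all members, members of the PP2A lists that passed, members of the other lists past 1.5-fold, neighbours of Ppp2r2c that passed, and the 3 genes most like it. Named outside this rule, after their values were seen, were other genes of the PP2A lists, members of counts of 5 or fewer in the other lists, genes that shared the bounds set by Ppp2r2c, and Man2b2. Alternatives were other pseudocounts, scalings, filters, and fold minimums, voom on recovered reads, the replicate number as a block, LNA Malat1 replicates 1 and 3 as 1 sample, the longest transcript as length, and leaving out each library.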

Additional observations from a re-analysis of the deposited data

How the results depend on the processing

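The calls of Ppp2r5c and Ppp2r5e held under all 16 alternative settings and that of Ppp2r5b under all but 1. Of the 8 B subunit genes other than Ppp2r2c, 3 fell, and 2 to 3 with 1 library left out, 2 without LNA Malat1 replicate 3. The number that rose was 0, and 1 (Ppp2r2a) with library totals set equal, quantile normalization, or voom on recovered reads. None of the 8 reached 1.5-fold or 2-fold under any of these settings. Ppp2r3a had a negative sign in 10 settings and a positive one in 6. Of the other PP2A genes, 2 rose, 1 with no filter or with LNA Malat1 replicates 1 and 3 as 1 sample, and 1 to 4 with 1 library left out (4 without LNA Control replicate 3, 1 without any single LNA Malat1 library). Of the associated and related genes, 14 fell, 9 to 19 with 1 library left out (9 without LNA Control replicate 2), and 4 rose, 9 with totals set equal, 8 with quantile normalization, 2 with replicates 1 and 3 as 1 sample, 9 with voom, and 2 to 7 with 1 library left out (7 without LNA Control replicate 1, and 2 without LNA Control replicate 2 or LNA Malat1 replicate 1). The cause of these shifts was not tested. Setting totals equal moved the median of all genes from 0.018 to 0.054. The B56 share differed by −3.79 points, −3.31 with the longest transcript, −3.0 without Ppp2r2c in the sum, and −4.27 to −3.12 with 1 library left out, and 5 rather than 9 genes kept their rank with the longest transcript.

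Samples with the same replicate number deviated together with correlations of 0.086, 0.18, and 0.083 over 10490 genes, not all above 0.1, so the numbers were not taken to pair the samples. With the replicate block, 3 of the 8 B subunit genes fell and 0 rose, 7 other PP2A genes fell and 2 rose, 17 associated and related genes fell and 5 rose, and 5 neighbours of Ppp2r2c passed. Depth limits Ppp2r2c most, with 1 to 7 recovered reads per LNA Control library.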
